A study of Rattus norvegicus with 2 samples.

Results

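The granins and the enzymes that process peptide hormones are the cargo and the machinery of dense-core granules, the vesicles from which neurons, endocrine cells and, to a lesser extent, astrocytes release peptides on demand. The set described here holds 10 genes chosen by name: the granins Chga, Chgb, Scg2, Scg3 and Vgf, the prohormone convertases Pcsk1 and Pcsk2 with the Pcsk2 chaperone Scg5, and the finishing enzymes Cpe and Pam. Of these, 9 genes had at least 1 probe set that the annotation assigns to that gene alone, with 11 probe sets in all, among 14218 genes named on the array by 20832 such probe sets. Pcsk1 had none and was not analysed here. The genes were chosen with the control and 5ppase values of these same arrays in view, so all differences below are descriptions without a test.

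Astrocytes, the main supporting glia of the brain, had been cultured from the hippocampus of Sprague-Dawley rat embryos at embryonic day 18, with a genotype labelled normal. The control culture carried the vector control, IRES2-RFP, which makes a red fluorescent protein. The 5ppase culture carried 5ppase-IRES2-RFP, in which 5ppase and the fluorescent protein come from 1 message. The series sets active calcium signalling (control) against its absence (5ppase); by common usage 5ppase is an inositol 5-phosphatase, which removes the messenger that opens the calcium store of the cell, although the labels do not spell it out. The vector's promoter, the share of cells that carried it and the number of cultures behind each sample are not stated in the labels. Total RNA of each culture went onto 1 single-colour Affymetrix rat array, so there were no replicates, no difference has a replicate check, and precision is limited by the number of arrays.

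Granins are acidic proteins that aggregate with calcium in the trans-Golgi network and help to load the granule; several are themselves cut into active peptides. Prohormone convertases cut precursors at pairs of basic residues, carboxypeptidase E removes the basic residues left behind, and peptidylglycine alpha-amidating monooxygenase turns a terminal glycine into the amide that many peptides need. Release of the finished peptide is triggered by calcium. The promoters of some granin genes carry the cyclic AMP response element (CRE), the octamer bound by CREB, a transcription factor activated by calcium and cyclic AMP.

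The sequences below are the 250 bases before the RefSeq start of 3 of the genes (build GRCr8), shown because Scg2, Scg5 and Vgf had the lowest ratios among genes of the set above the signal floor and differ in this element. Scg2 lies at chr9:88256867-88257116 (- strand), Vgf at chr12:25277021-25277270 (- strand) and Scg5 at chr3:121042796-121043045 (- strand). Each is written 5′ to 3′ along the gene, and capitals mark the CRE octamer TGACGTCA or, where it is missing, the half-site TGACG.
Scg2: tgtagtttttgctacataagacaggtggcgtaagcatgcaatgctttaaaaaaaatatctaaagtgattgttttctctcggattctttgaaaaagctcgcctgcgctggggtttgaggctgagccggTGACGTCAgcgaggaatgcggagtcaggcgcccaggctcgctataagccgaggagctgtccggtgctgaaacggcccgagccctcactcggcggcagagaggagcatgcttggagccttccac
Vgf: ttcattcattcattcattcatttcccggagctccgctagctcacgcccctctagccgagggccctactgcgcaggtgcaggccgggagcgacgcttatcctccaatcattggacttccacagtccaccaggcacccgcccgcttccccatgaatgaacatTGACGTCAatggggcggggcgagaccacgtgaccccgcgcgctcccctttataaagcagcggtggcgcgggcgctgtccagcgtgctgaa
Scg5: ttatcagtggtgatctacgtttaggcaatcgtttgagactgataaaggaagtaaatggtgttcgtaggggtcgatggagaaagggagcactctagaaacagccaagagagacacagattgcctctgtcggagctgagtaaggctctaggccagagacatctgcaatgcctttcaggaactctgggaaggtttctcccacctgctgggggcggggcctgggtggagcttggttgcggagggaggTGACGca
The octamer began 123 bases before the start of Scg2 and 90 bases before that of Vgf. In Scg5 these letters were not in the window, and a half-site began 7 bases before the start.

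Each motif was searched on both strands in 300 bases, 250 before to 50 after the start. RefSeq promoters were at hand for 8 of the 10 genes. The octamer was in 2 of the 8, those of Scg2 and Vgf, and in 1.83% of all 33469 promoters. The half-site TGACG, which the octamer contains on each strand, was in 7 of the 8, all but Chgb, and in 21.2% of all promoters. The AP-1 motif TGANTCA was in none of the 8 and in 7.33% of all. The TATA motif TATAAA was in 1 of the 8, that of Vgf, and in 14.2% of all. These shares are over all RefSeq promoters, not over the genes read on these arrays, for which counts are given further below. A match describes letters and does not show binding.

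Among the granins Scg2, or secretogranin II, the precursor of the peptide secretoneurin, was 4.70-fold lower in the 5ppase array. Its signal was 1063 in control and 226 in 5ppase, 21.3% of the control signal (log2 ratio -2.23; all ratios are 5ppase over control). This was the sixth lowest ratio (rank 6) among 8261 genes. These genes, called compared below, exceeded a floor of 62.0 on each array and reached a bright level of 208 on at least 1. The only internal measure of error is the disagreement between 2 probe sets of 1 gene, which takes in noise of probes and hybridisation but says nothing of how cultures vary. The SD of this disagreement, divided by the square root of 2 to give an SD per probe set, was 0.26 in log2 ratio over 1883 genes. It was 0.30 where the dimmer probe set was under 500, 0.21 from 500 to 2000 and 0.14 above 2000. Only pairs in which both probe sets met the floor and bright conditions entered, so disagreement with dim probe sets is left out. The Scg2 ratio was larger in size than each of these SDs, but the gene was chosen with this contrast in view, so nothing is read from that. Scg2 itself had 1 probe set, so its value has no second reading. In such bulk RNA, fewer cells of a type and less RNA per cell cannot be told apart.

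Vgf, a granin-related precursor whose peptides act on synapses and energy balance, read 1169 in control and 795 in 5ppase (log2 ratio -0.56). The 5ppase signal was 68.0% of control, and 6.14% of compared genes had a ratio as low or lower. Vgf and Scg2 shared the octamer but differed in the size of the ratio. Scg3, or secretogranin III, which binds chromogranin A to the granule membrane, gave 72.2 and 109. It was the only gene of the set above the floor on both arrays that leaned towards 5ppase (0.60), and it did not reach the bright level on either array. Chromogranin A (Chga, 3.7 and 6.7) and chromogranin B (Chgb, 31.7 and 2.4), the classical granins of endocrine cells, lay under the floor on both arrays. No ratio is given for them.

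Of the convertase group, Scg5 (7B2), the chaperone and inhibitor that Pcsk2 needs to mature, read 519 in control and 278 in 5ppase. It was 1.87-fold lower in 5ppase (log2 ratio -0.90), just short of the 2-fold threshold, and 1.86% of compared genes had a ratio as low or lower. Pcsk2 itself, its client convertase, gave 27.9 and 5.0, under the floor on both arrays. The chaperone was thus read well above the floor and its convertase was not.

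The finishing enzymes were close to equal on both arrays. Cpe, the carboxypeptidase that also serves as a sorting receptor for precursors, read 24909 in control and 22868 in 5ppase (log2 ratio -0.12). Pam, the amidating enzyme, gave 6234 and 5336 at its brightest probe set (-0.22). Among compared genes 35.9% had a ratio as low as or lower than Cpe and 24.5% as low as or lower than Pam. The other 2 probe sets of Pam read little: the second gave 69.5 and 43.3, above the floor on the control array only, and the third 8.5 and 1.8. They neither repeat nor contradict the brightest, since neither lay above the floor on both arrays.

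**Figure D1:**
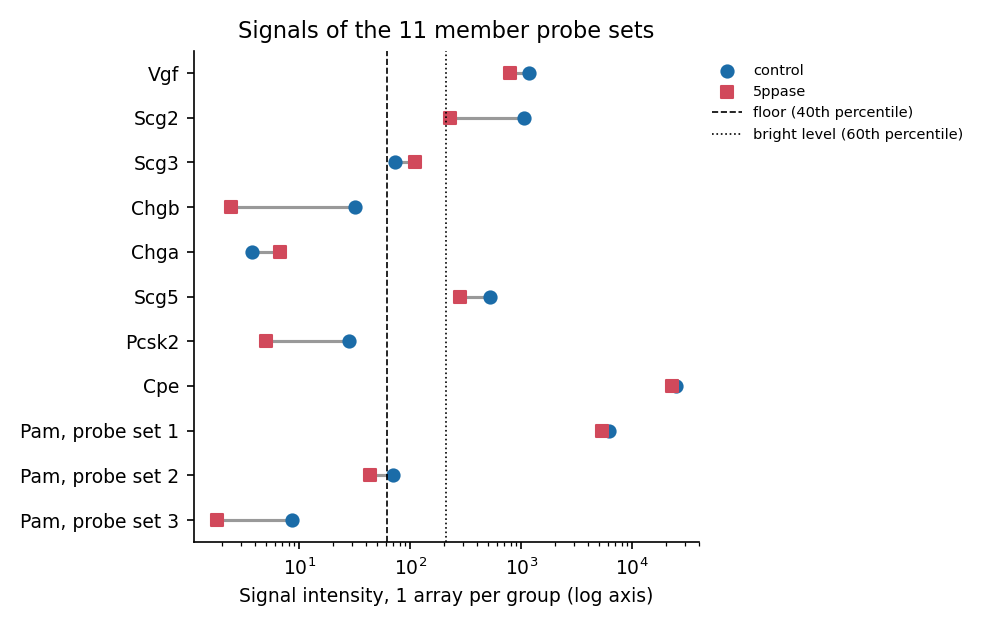
Signal intensity (log axis) of the 11 probe sets of the 9 genes on the control array (circles) and the 5ppase array (squares), with the floor of 62.0 and the bright level of 208 as vertical lines. Scg2 spans the widest distance among probe sets above the floor, from 1063 to 226, while Cpe and the brightest Pam probe set nearly coincide and Chga, Chgb and Pcsk2 lie left of the floor.

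Counted as a set, 5 of the 9 genes were compared, Scg3 was above the floor but not bright, and 3 (Chga, Chgb and Pcsk2) lay under the floor on both arrays. At least 2-fold lower in 5ppase was 1 of the 5, Scg2, beside 1.42% of all 8261 compared genes. At least 1.5-fold lower were 2 of the 5, Scg2 and Scg5, beside 5.46%. None of the 5 was 2-fold higher; of all compared genes 2.92% were 2-fold apart in either direction. All 5 ratios were below 0, beside 4306 of all 8261 compared genes (52.1%). Their median was -0.56 beside -0.017 over all compared genes. The choice of genes used this contrast, so nothing is read from these counts.

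**Figure D2:**
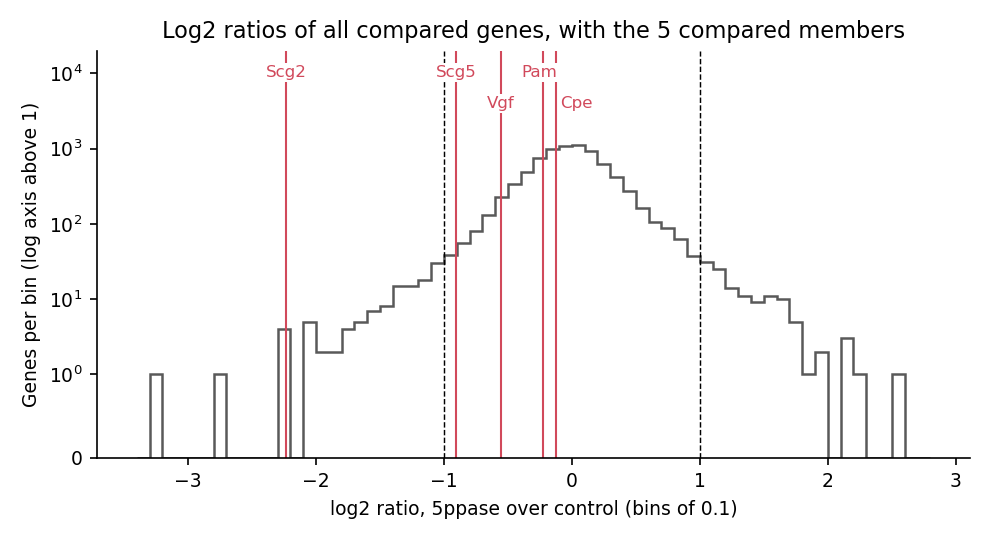
Number of compared genes per bin of 0.1 in log2 ratio (5ppase over control; the vertical axis is logarithmic above 1), with the 5 compared genes of the set as solid lines and 2-fold as dashed lines. Scg2 at -2.23 stands in the thin left tail, Scg5 at -0.90 just inside the 2-fold line, and Vgf, Pam and Cpe within the body of the distribution.

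By ratio, the 3 named genes just below Scg2 were Col18a1 (-2.78), Mmp3 (-2.28) and Jam2 (-2.27), and the 3 just above were Ndp (-2.09), Plekhb1 (-2.07) and Igfbp5 (-2.06). The measure is 1 ratio from 2 arrays.

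Among other convertases and their inhibitor, of 7 on the array 5 were compared, with a median log2 ratio of 0.06, and none was 2-fold apart. The brightest were Pcsk1n, which encodes proSAAS, an inhibitor of Pcsk1 that is itself a granin-like granule protein (2840 and 2457, -0.21), and Mbtps1, the site-1 protease of the Golgi (2209 and 2302, 0.06). Pcsk6, a convertase of growth factor precursors, named after its values were seen, was the highest of the list (278 and 426, 0.62).

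Among other carboxypeptidases and peptide-modifying enzymes, no compared gene was 2-fold apart either. Of 16 on the array 11 were compared, of which 6 were higher and 5 lower. Their median was 0.03 and their ratios ran from -0.66 to 0.68. With quantile normalization or the loess trend removed the split was 5 higher and 6 lower and the median -0.018 or -0.017. Cathepsin L (Ctsl), a lysosomal protease that also cuts some neuropeptide precursors, gave 16774 and 20548 (0.29), and its second probe set 4608 and 4717 (0.03). Cathepsin B (Ctsb) gave 9015 and 9222 (0.03). The top of the range was Cpd, the trans-Golgi carboxypeptidase of the constitutive pathway, named after its values were seen (3827 and 6122, 0.68). Cpd leaned towards 5ppase and Cpe did not.

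Most peptide precursors gave signals under the floor. Of 35 on the array 21 lay under the floor on both arrays and 7 were compared. In 5ppase 5 of these were higher and 2 lower, and the median was 0.12; a common median or quantile normalization made the split 4 higher and 3 lower. Neurotrophin 3 (Ntf3), a trophic factor, was the only one 2-fold apart (408 and 192, -1.09), beside 2.92% of all compared genes. Penk, the enkephalin precursor and a known astrocyte product, gave 5116 and 3758 (-0.45), and Bdnf, a trophic factor released from granules, gave 533 and 801 (0.59); both were named after their values were seen. The compared genes of this list therefore lay on both sides of 0.

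Genes of the granule membrane, its maturation and its release held a few low ratios. Of 46 on the array 24 were compared, of which 18 were lower and 6 higher (median -0.19), beside 4306 lower of 8261 compared genes in all (52.1%). Of the 24, 2 were at least 2-fold lower, beside 1.42% of all compared genes, and none was 2-fold higher. Cadps, also called CAPS, which primes dense-core granules for calcium-triggered fusion, gave 1639 and 480 (-1.77). Its second probe set gave 19.3 and 7.7, under the floor on both arrays. Sorl1, a sorting receptor of the trans-Golgi network and endosomes, gave 3114 and 1249 (-1.32). Sorl1 had 8 probe sets, and all 6 that lay above the floor on both arrays were lower in 5ppase, between -1.82 and -0.61. Snap25, a SNARE protein of neuronal exocytosis, gave 7.7 and 7.2.

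Of factors known to act on granule genes, 16 were on the array and 11 were compared. Of these 10 were lower and 1 higher, beside 52.1% lower among all compared genes, with the same split under each other scaling. None was 2-fold apart, and the median was -0.35. Fos, a calcium-responsive subunit of AP-1, gave 8260 and 4238 (-0.96) at its brightest probe set and 73.4 and 129 (0.82) at a dim second one. Egr1, an early response factor, gave 6283 and 4108 (-0.61). Creb1, which encodes CREB itself, gave 404 and 370 (-0.13), as named after its values were seen. Rest, the repressor that keeps granin genes silent outside neurons and endocrine cells, lay under the floor at both probe sets (9.9 and 10 at the first, 5.5 and 5.1 at the second).

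Compared genes were also split by the octamer and by the half-site, divisions made after the values were seen. Of the 6548 compared genes with 1 promoter in the RefSeq table, 225 carried TGACGTCA. Among these, 1 was at least 2-fold lower (0.44%), namely Scg2, and 2 were at least 2-fold higher (0.89%). Among the 6323 without it, 79 were at least 2-fold lower (1.25%) and 81 higher (1.28%). The medians were -0.044 with the octamer and -0.010 without it. The half-site TGACG was in 2306 of the 6548 genes. Of these, 16 were at least 2-fold lower (0.69%) and 30 at least 2-fold higher (1.30%). Among the 4242 without the half-site, 64 were at least 2-fold lower (1.51%) and 53 higher (1.25%). The medians were -0.019 with the half-site and -0.0069 without it.

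**Figure D3:**
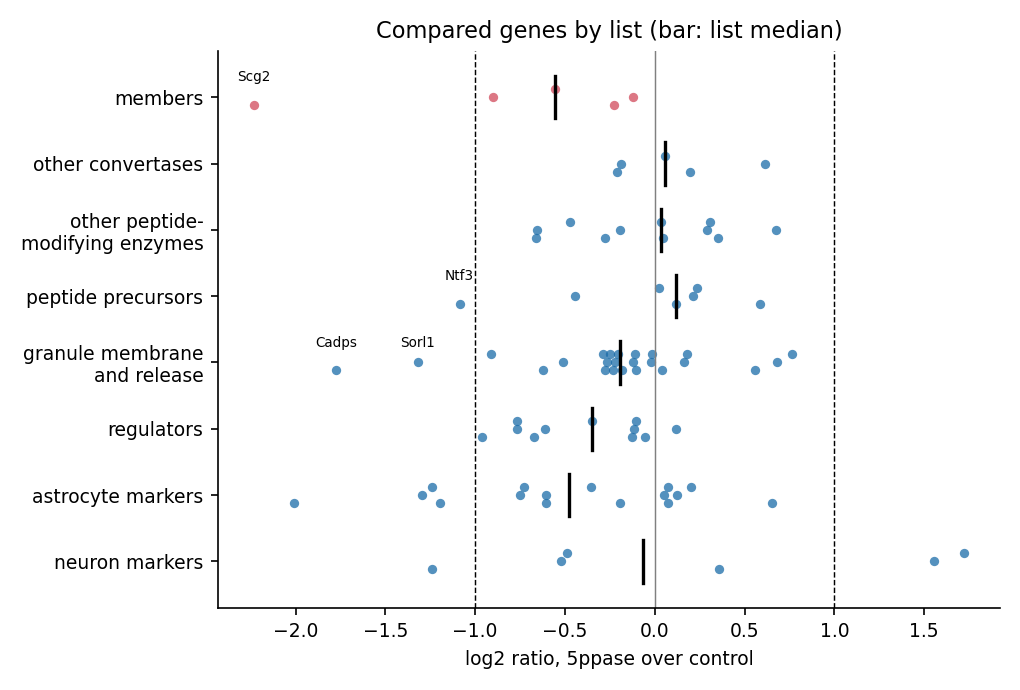
Log2 ratio (5ppase over control) of each compared gene, by list, with the list median as a bar and 2-fold as dashed lines; genes at least 2-fold apart are named except in the marker lists. Scg2, Cadps, Sorl1 and the precursor gene Ntf3 lie left of the 2-fold line, and no convertase or other peptide-modifying enzyme does.

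Markers of the cell types that such a culture can hold differed between the arrays as follows, and their part in the ratios above was not tested. Of 20 astrocyte markers on the array, 18 exceeded the floor in control and 16 in 5ppase, with summed signals of 160356 and 139323. Of the 16 compared, 10 were lower and 6 higher in 5ppase, beside 52.1% lower among all compared genes. The count of higher ones was 3 with quantile normalization and 5 with the loess trend removed. Their median log2 ratio was -0.48. The lower ones included the lipid carrier Fabp7 (5972 and 1486, -2.01), the end-foot protein Mlc1 (-1.30), the filament protein Gfap (17525 and 7408, -1.24) and the sodium pump subunit Atp1b2 (-1.19). Aqp4, the astrocyte water channel, gave 432 and 25.1, at least 6.97-fold lower against the floor, and the bicarbonate transporter Slc4a4 was the highest of the list (0.65). The glutamate transporter Slc1a2 and the connexin Gjb6 lay under the floor on both arrays.

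Of 24 neuron markers, 10 and 11 exceeded the floor, with summed signals of 15330 and 22084. The growth-cone protein Stmn2 (3766 and 11065, 1.55) made up the whole gain, and without it the sums were 11564 and 11018. The second probe set of Stmn2 gave 1925 and 3471 (0.85). Of the 6 compared, 3 were higher and 3 lower (median -0.065). Tubb3, a neuronal tubulin, gave 87.9 and 290 (1.72), and its second probe set lay under the floor on both arrays. Gad1, the GABA-synthesizing enzyme, gave 998 and 422 (-1.24), and its second probe set lay above the floor in control only. The remaining compared neuron markers were bright: Uchl1 (4383.5 and 5614.8, 0.36), Eno2 (3624.7 and 2585.1, -0.49) and Map2 (1736.7 and 1210.1, -0.52). Rbfox3, Snap25, Syt1, Gap43 and Dcx were among those that stayed under the floor in both. Of 11 neuroendocrine markers, 1 and 3 exceeded the floor, none was compared, and the sums were 317 and 454. Syp exceeded the floor on both arrays and was higher in 5ppase (106 and 158.9, 0.58), without reaching the bright level. Ddc (41.4 and 83.7) and Gh1 (39.5 and 119) exceeded it in 5ppase only. Th, Dbh, Chga and Chgb stayed under it in both, of which Chga and Chgb also belong to the set described here. Of 14 fibroblast and meningeal markers 9 and 10 exceeded the floor, with sums of 119264 and 115199. Of the 9 compared, 5 were lower and 4 higher (median -0.017). Under some other scalings 6 were lower and 3 higher, with medians down to -0.12. At least 2-fold lower were 2 of the 9, beside 1.42% of all compared genes. These were Mgp, an inhibitor of calcification (1902 and 199, -3.26), and Igfbp5, a growth factor binding protein (-2.06). Thy1, a surface glycoprotein, leaned the other way (0.87).

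Of 12 oligodendrocyte lineage markers 4 exceeded the floor on each array, with sums of 3934 and 2271. Without Cldn11, a claudin of myelin (1371 and 47.2, at least 22.1-fold lower against the floor), the sums were 2563 and 2224. Of the 3 compared, 2 were lower, Pdgfra (1018 and 644, -0.66) and Cnp (996 and 737, -0.43). The other 1, the progenitor proteoglycan Cspg4, was higher (262 and 630, 1.27). Of 11 endothelial and pericyte markers 2 exceeded the floor on each array and 9 lay under it on both, with sums of 1529 and 744. The junction protein Ocln (1212 and 384, -1.66) was the only one compared and made up the largest part of both sums. Flt1, which was not bright, gave 74.1 and 127.5 and leaned the other way (0.78). Of 12 microglial markers 2 exceeded the floor in control and 4 in 5ppase, with sums of 1357 and 2681, and 8 lay under it on both arrays. Tmem119 (1078 and 2273, 1.08) was the only one compared and made up most of both sums. Some marker genes given here were named after their values were seen. These were Aqp4, Slc4a4, Slc1a2, Gjb6, Uchl1, Eno2, Map2, Rbfox3, Syt1, Gap43, Dcx, Syp, Ddc, Gh1, Th, Dbh, Thy1, Cldn11, Cnp, Pdgfra and Flt1.

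The arrays had median signals of 107 and 109 over 31099 probe sets. To see whether the arrays differed in 3′ bias, the log2 ratio at the 3′ end of a control gene was set against that at its 5′ end. The gap was 0.13 in beta-actin, 0.066 in GAPDH and 0.0064 in hexokinase. Such a gap does not show a bias that both arrays share. In control the 3′ and 5′ signals were 646 and 160 for hexokinase, 29095 and 15771 for beta-actin, and 23263 and 21121 for GAPDH. Hexokinase gave 510 and 127 in 5ppase. The part of RNA quality in the ratios above was not tested. Inpp5a, the rat type I 5-phosphatase gene, gave 994 and 1023 at its brightest probe set and 10.4 and 133.6 at its second; the labels do not name the construct's gene or species, so neither value checks them.

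**Figure D4:**
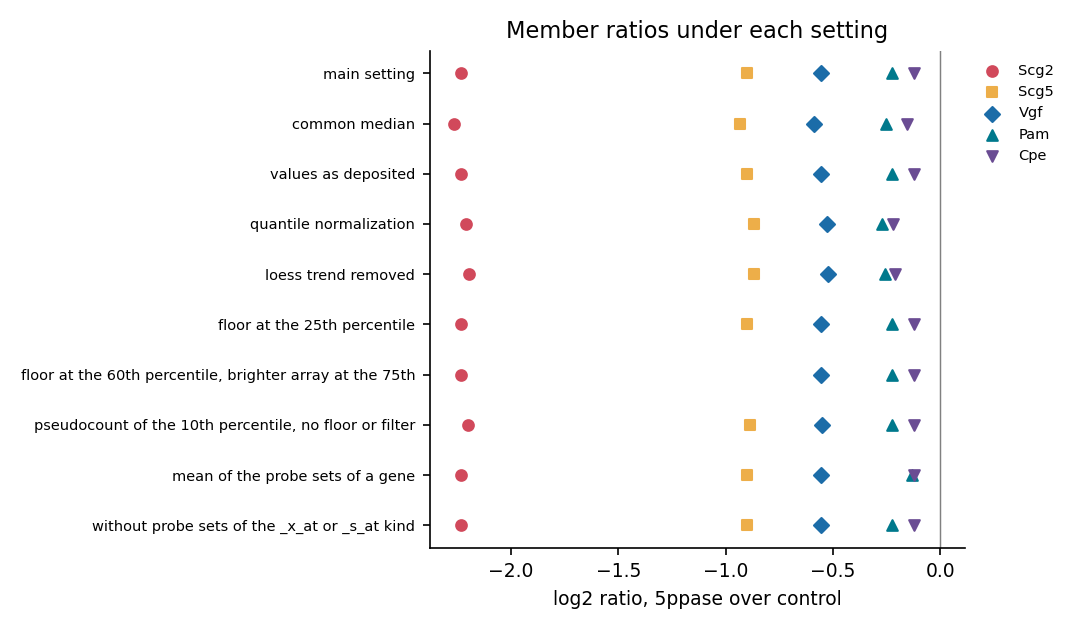
Log2 ratio (5ppase over control) of the 5 compared genes under the main setting and under each alternative that gave a value. Points of 1 gene stay in narrow columns, with Scg2 between -2.26 and -2.19; Scg5 has no point where its signal fell short of the raised bright level, and Pam moves onto Cpe where its probe sets are averaged.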

How the data were processed

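The authors deposited 1 linear-scale intensity for each probe set and array. The submitters' processing notes name MAS5, and no source used here gives its version or settings. Biotin-labelled cRNA was prepared from 6 µg of total RNA, per the labels' protocols. Both arrays have a trimmed mean of 500.2 (2% removed at each end). All sample columns were used (0 left over).

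Names of probe sets came from a platform annotation, which can be old; symbols of the set matched RefSeq gene identifiers with 0 changes. Of 31099 probe sets 20832 had 1 symbol, 436 several and 9831 none listed. Signals were scaled to a common trimmed mean, raised to a floor (the 40th percentile of the pooled signals, 62.0) and put on the log2 scale. Each gene took the probe set of highest mean signal. Genes were compared if both signals exceeded the floor and 1 reached the 60th percentile (208). The floor is not a detection call and understates ratios of dim genes. Groups of 1 array allow no test, so no p-value is given. The procedure was tested on simulated data.

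The genes, the lists and the motifs were chosen with earlier results of these data known. Genes outside the set were named by rule: in each list up to 4 at least 2-fold apart or, if none, the 2 brightest; the 3 nearest Scg2 on either side, without provisional symbols; and Gfap, Fos, Rest, Snap25 and Inpp5a. Others are marked. Promoters came from RefSeq (GRCr8), matched by symbol. Alternatives were a common median, no scaling, quantile normalization, loess (span 0.3), other floors (25th percentile; 60th with 75th), a pseudocount (10th percentile, 6.4), other choices of probe set, and thresholds of 1.5-fold and 3-fold. Python 3.11.15, pandas 2.3.3, numpy 2.4.6 and statsmodels 0.14.6 were used.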

Additional observations from a re-analysis of the deposited data

How the results depend on the processing

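Under the alternatives that kept 2-fold and gave a value, Scg2 stayed between -2.26 and -2.19 on the log2 scale, Scg5 between -0.93 and -0.87, Vgf between -0.59 and -0.53, Pam between -0.27 and -0.13 and Cpe between -0.22 and -0.12, each within the probe set SD of 0.26 of its main value. Scg5 was not compared with the floor at the 60th percentile and the brighter array at the 75th. With a pseudocount and no floor or filter, 3 of 9 genes of the set were at least 2-fold lower, Scg2, Chgb (-2.11) and Pcsk2 (-1.59), the last 2 from signals under the floor, beside 6.86% of 14218 genes. At 1.5-fold, 2 were lower. Over all genes 241 were at least 2-fold apart; the count was 122 with the raised floor, 2087 with the pseudocount, 65 with second brightest probe sets (1883 genes), 885 at 1.5-fold and 53 at 3-fold. Fewer or more genes were compared in the first 3, by construction. Second brightest probe sets gave no value for the set, since only Pam has one and it was not compared. Leaving out a replicate was not possible with 1 array per group. No paired analysis was possible because each group holds 1 array.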

Other observations

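Some genes of the fixed lists were above the floor on 1 array only, without reaching the bright level, and are given as signals in control and 5ppase with no ratio, as named after their values were seen. Moxd1, a relative of the copper monooxygenases to which Pam and Dbh belong, gave 171.9 and 52.9. The convertase Pcsk5, which acts in the secretory pathway of many tissues, gave 83.4 and 39.3. Tac1, the substance P precursor, gave 65.8 and 4.7, and Calca, the precursor of calcitonin and its related peptide, gave 9.4 and 75.2.

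The 2 compared genes that carry the octamer TGACGTCA and were at least 2-fold higher in 5ppase were Il6, the cytokine interleukin 6 (1194 and 2499, log2 ratio 1.07), and C13h1orf74 (123 and 262, 1.09). Among compared genes with the AP-1 motif TGANTCA, 3 of 282 were at least 2-fold lower and 9 at least 2-fold higher. Of the 6266 without it, 77 were lower and 74 higher by that measure. With the TATA motif TATAAA, 8 of 401 were at least 2-fold lower and 7 at least 2-fold higher, beside 72 and 76 of the 6147 without it. No test was made.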
